A study of Mus musculus with 6 samples.

Results

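Collagen genes were followed through 6 RNA libraries of the mouse pituitary gland. The members were all genes whose name in the transcript tables has the form Col, a number, the letter a and a number, and there were 44 of them among 50348 named genes. By the structure of their products they were 11 fibrillar collagens, 6 chains of type IV, 6 of type VI, 9 fibril-associated collagens, 2 multiplexins, 4 transmembrane collagens, 4 of types VIII, X and VII, and 2 others, Col26a1 and Col28a1.

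Each group held 1 library. Glands came from mice at 7 weeks of age, called adult here, or at postnatal day 7 (P7). For the sorted libraries, a Cre recombinase under the control of a hormone gene (Tshb, the thyrotropin beta subunit of thyrotropes; Gh, the growth hormone of somatotropes; Lhb, the luteinising hormone beta subunit of gonadotropes) switched on a YFP reporter at the ROSA locus, glands of like genotype were pooled and dispersed with collagenase, and fluorescent cells were sorted. The reporter stays on in the descendants of a cell, so each sort takes a lineage and not only cells that use the hormone gene at the time. The pools held 42 glands for adult Tshbcre, 12 for adult Ghcre, 7 for adult Lhbcre and 5 for P7 Tshbcre. The whole-gland libraries were nontransgenic, from 1 adult gland and 8 P7 glands. Their labels give all pituitary cells as the cell type, but they carry the same protocol text as the sorted samples, sort included; they are taken here as unsorted, and every comparison of a sort with its gland rests on that. From each, 250 ng of RNA entered a method that removes ribosomal RNA. With 1 library a group there was no replicate, no test and no error between animals, and every difference below compares 2 libraries, not 2 conditions.

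Collagens are secreted or membrane-bound proteins built from 3 chains wound into a triple helix. Types I and III form the fibrils of connective tissue and come mostly from fibroblasts and other mesenchymal cells, type IV forms the meshwork of basement membranes, and type VI forms beaded filaments near cells. In the pituitary, the hormone cells lie in cords bounded by a basement membrane next to fenestrated capillaries, with pericytes and fibroblasts in the space between.

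Levels are FPKM, which count fragments for the length of a transcript and the size of a library, summed over the annotated transcripts of a gene and divided by 1 scaling factor a library; they are called scaled FPKM. Differences are of log2(scaled FPKM + 1), which understates how far low genes differ. To be called apart, a gene had to differ 4-fold or more on that scale and reach 1 scaled FPKM in its higher library, and genes under 1 in both libraries were not compared. The table of the Ghcre library ended within chromosome 5 and listed 31 of the 44 collagen genes, so the other 13 were not measured there.

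The lineage markers were checked first. Tshb, at 33.1 scaled FPKM in the adult gland and 61.0 in the P7 gland, stood at 1075 and 3001 in the Tshbcre libraries of the same ages. Nr5a1, a regulator of gonadotropes, was at 55.5 in the Lhbcre library against 5.08 in the adult gland. Gh was not listed for the Ghcre library, which listed 3 of the 5 somatotrope markers. Lhbcre and the adult gland did not list Gh either, and listed 4 of the 5 each. The markers listed summed to 89.0 in Ghcre and 89.9 in the adult gland, over these unlike sets. Neurod4, a gene of the somatotrope lineage, was at 15.8 in Ghcre against 5.07 in the adult gland. It was also at 13.3 in Lhbcre. RNA of other lineages was present too. Lhb stood at 2904 in adult Tshbcre, above the 2198 of Lhbcre itself and the 637 of the adult gland, and Fshb, the other gonadotropin beta subunit, at 928 against 216 in Lhbcre. Gh was at 14807 in adult Tshbcre, with no adult gland value to set beside it. Somatotrope markers, which share Pou1f1 with the thyrotrope list, summed to 3915 in P7 Tshbcre, with Ghrhr at 0, against 6080 in the P7 gland. Stem and folliculostellate markers summed to 85.1 in adult Tshbcre and 144 in the adult gland, and to 7.56 in P7 Tshbcre and 101 in the P7 gland. Markers of macrophages and other leukocytes summed to 56.1 in the adult Tshbcre library against 84.1 in the adult gland.

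The collagen genes summed to 141 scaled FPKM in the adult gland and to 372 in the P7 gland. In the sorted libraries the sum was 63.7 for adult Tshbcre, 50.4 for P7 Tshbcre, 75.7 for Lhbcre and 26.5 for Ghcre, the last over its 31 listed members. Over the same 31 members the sum was 67.5 in the adult gland and 227 in the P7 gland. It was 43.1 in adult Tshbcre, 38.3 in P7 Tshbcre and 37.0 in Lhbcre. Members at 1 scaled FPKM or more numbered 19 in the adult gland and 29 in the P7 gland. They numbered 13 in adult Tshbcre, 11 in P7 Tshbcre, 14 in Lhbcre and 5 of the 31 listed in Ghcre. Of the 44 members, 10 reached 10 scaled FPKM in at least 1 library, 23 reached 1 but not 10, and 11 stayed under 1 in every library that lists them. Those 11 were Col4a4, Col5a3, Col6a4, Col6a5, Col6a6, Col7a1, Col9a3, Col10a1, Col17a1, Col19a1 and Col22a1. Col9a3 was listed at 0 in all 6 libraries.

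**Figure D1:**
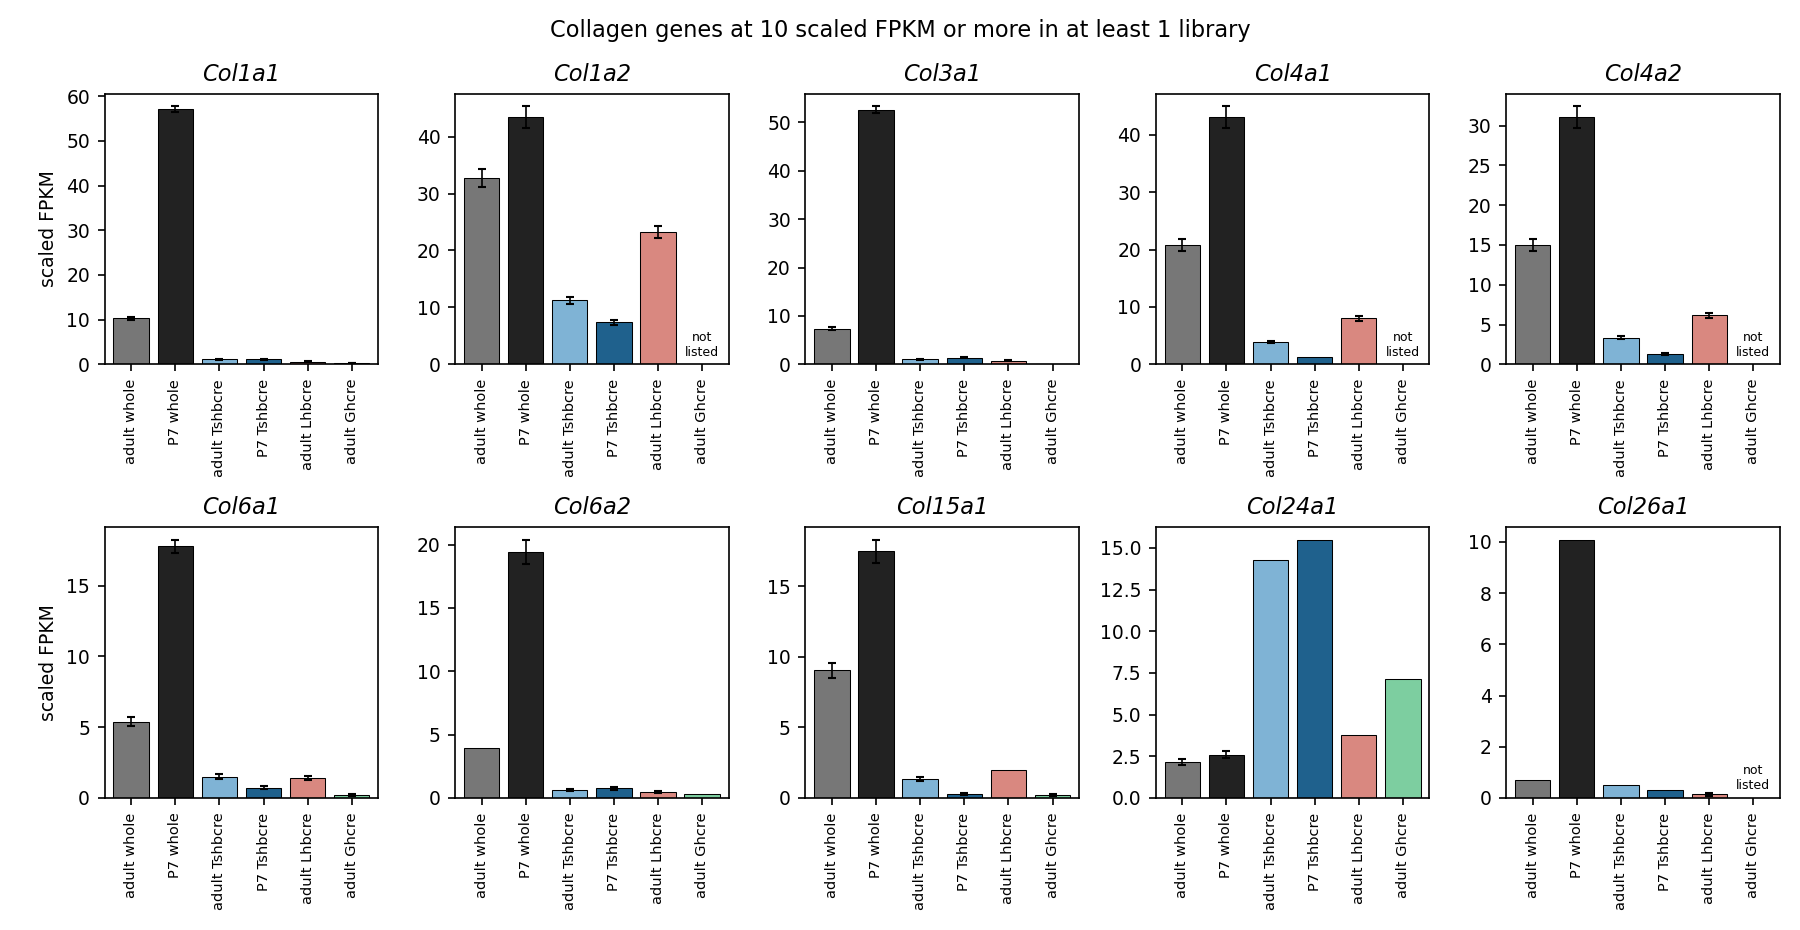
Scaled FPKM (vertical axes, linear, each panel with its own scale) of the 10 collagen genes at 10 scaled FPKM or more in at least 1 library; each bar is 1 library, and lines are the deposited bounds of the FPKM, shown where 1 transcript carried the gene. The P7 whole gland is highest for 9 of the genes, while Col24a1 is highest in the P7 Tshbcre library, at 15.5.

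The type I and type III fibrillar genes were the most abundant collagens of the P7 gland. Col1a1 (chromosome 11, 94827050 to 94843868, coordinates of mm39 here and below) encodes the alpha1 chain of type I collagen. Its level was 10.3 scaled FPKM in the adult gland, 57.0 in the P7 gland, 1.12 in adult Tshbcre, 1.16 in P7 Tshbcre, 0.616 in Lhbcre and 0.298 in Ghcre. Both whole glands stood above all 4 sorted libraries, and the P7 gland stood 5.52 times above the adult one.

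Col3a1 (chromosome 1, 45350698 to 45388866) encodes the chain of type III collagen, which is laid down in the same fibrils as type I. Its level was 7.32 in the adult gland, 52.6 in the P7 gland, 1.02 in adult Tshbcre, 1.39 in P7 Tshbcre and 0.781 in Lhbcre, and it was listed at 0 in Ghcre. The order of the whole glands was that of Col1a1, with a ratio of 7.19 between the ages. The deposited bounds of the whole glands, which cover the counting and assignment of reads only, did not overlap: 7.02 to 7.63 in the adult and 52.0 to 53.3 at P7.

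Col1a2 (chromosome 6, 4505618 to 4541543) encodes the alpha2 chain, which joins alpha1 in the type I helix. Its level was 32.7 in the adult gland, 43.4 in the P7 gland, 11.3 in adult Tshbcre, 7.39 in P7 Tshbcre and 23.2 in Lhbcre. It was not listed for Ghcre. Unlike Col1a1, it stood above 7 scaled FPKM in all 5 libraries that list it. Another annotated gene overlaps its 5′ end and was listed at 0 in adult Tshbcre, Lhbcre and the adult gland. In the other libraries it stood at 0.309 in P7 Tshbcre and 0.505 in the P7 gland. No label or header says that strand was used in assigning reads, so reads of overlapping genes cannot be told apart.

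The ratio of Col1a1 to Col1a2 was taken within a library and so is free of the scaling between libraries. Among partner chains with both above 0, this ratio differed most between libraries. It was 0.316 in the adult gland and 1.31 in the P7 gland. It was 0.0990 in adult Tshbcre, 0.157 in P7 Tshbcre and 0.0266 in Lhbcre. Ratios taken at the outer deposited bounds, for example 0.291 to 0.342 in the adult gland and 1.24 to 1.39 at P7, did not overlap between any pair of the 5 libraries. The ratio of Col3a1 to Col1a1 moved far less: 0.708 in the adult gland, 0.922 at P7, 0.909 in adult Tshbcre, 1.19 in P7 Tshbcre and 1.27 in Lhbcre. Each gene had 1 annotated transcript in these tables, and adding assembled transcripts left both type I values as they were.

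**Figure D2:**
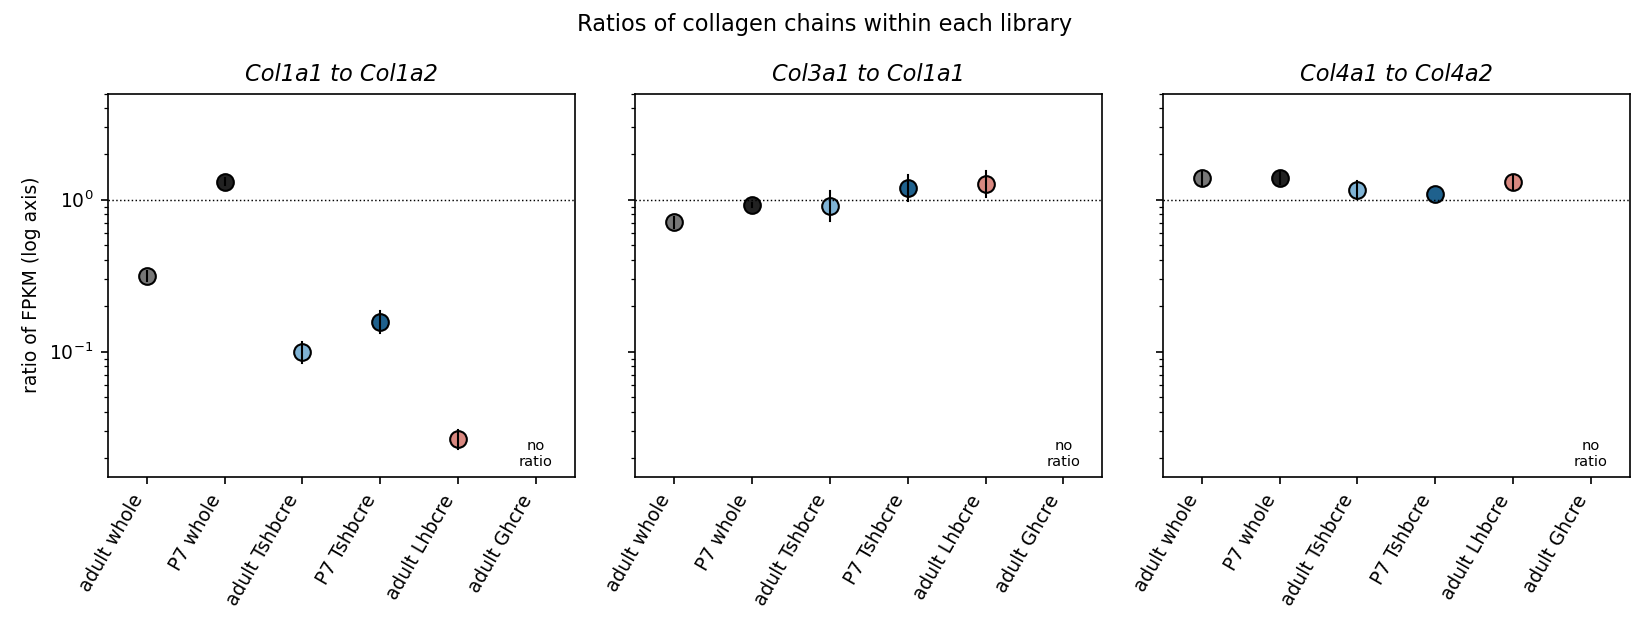
Ratios of FPKM between collagen chains within each library (vertical axis, logarithmic); points are libraries and lines span the ratio at the outer deposited bounds, where each gene was carried by 1 transcript. Col1a1 to Col1a2 runs from 0.0266 in Lhbcre to 1.31 in the P7 gland, while Col4a1 to Col4a2, from summed transcripts, runs from 1.09 to 1.39 (0.600 in P7 Tshbcre with the highest transcript alone).

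The 250 bases upstream of the annotated start of Col1a2 and of Col3a1 are shown because these genes differed widely in level in the sorted libraries while their products enter the same fibrils. They come from RefSeq on GRCm38.p6, an older build than that of the tables, at chr6:4505368-4505617 and chr1:45311288-45311537, both on the plus strand. Capitals mark matches, on either strand, to CCAAT, to TATAA or to GGGCGG.
Col1a2: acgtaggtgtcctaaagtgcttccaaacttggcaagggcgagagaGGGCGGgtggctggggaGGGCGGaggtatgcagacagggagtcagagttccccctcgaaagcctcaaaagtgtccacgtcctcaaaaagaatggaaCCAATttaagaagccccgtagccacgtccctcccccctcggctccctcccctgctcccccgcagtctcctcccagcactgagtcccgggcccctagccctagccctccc
Col3a1: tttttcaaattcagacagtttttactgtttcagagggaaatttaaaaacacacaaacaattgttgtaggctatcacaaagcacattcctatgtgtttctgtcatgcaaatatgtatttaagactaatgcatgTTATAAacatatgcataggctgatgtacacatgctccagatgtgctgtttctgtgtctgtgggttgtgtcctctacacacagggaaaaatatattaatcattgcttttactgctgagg
The Col1a2 window held 1 CCAAT, 109 bases before the start, and 2 GGGCGG. The Col3a1 window held neither, but held TATAA on both strands in 1 overlapping run. A match of letters describes the window and is not a binding site. Such windows were at hand for 35 of the 44 genes, 38 windows in all. CCAAT was in 13 of the 38 against 33.9% of 32851 mouse promoter windows, TATAA in 7 against 22.8%, and GGGCGG in 22 against 32.7%.

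Col24a1 was the one collagen gene called higher in a sorted adult library. It encodes a fibrillar collagen of low abundance (chromosome 3, 144998233 to 145257768). Its level was 2.15 in the adult gland, 2.60 in the P7 gland, 14.3 in adult Tshbcre, 15.5 in P7 Tshbcre, 3.76 in Lhbcre and 7.16 in Ghcre. All 4 sorted libraries stood above both whole glands, and the Tshbcre libraries of both ages were highest. It made up 22.4% of the collagen sum of adult Tshbcre and 30.7% of that of P7 Tshbcre, first among the collagens in both. The transcripts that carried it differed between libraries: of 8 annotated ones, 4 were above 0 in adult Tshbcre, where the highest held 44.9%, 3 were above 0 in P7 Tshbcre, where a different one held 57.3%, and each whole gland listed a single one above 0. With assembled transcripts added, the P7 gland moved to 7.16, above Lhbcre at 5.49, and P7 Tshbcre stayed at 15.5. The difference at P7 was then 1.01 on the log2 scale, under the 4-fold threshold, while the adult one was 2.61.

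The window upstream of Col24a1 (GRCm38.p6, chr3:145292222-145292471, plus strand) is shown as that of the fibrillar gene with the opposite order of libraries. It held none of the 3 motifs, which says only that these letters are not in this window.
Col24a1: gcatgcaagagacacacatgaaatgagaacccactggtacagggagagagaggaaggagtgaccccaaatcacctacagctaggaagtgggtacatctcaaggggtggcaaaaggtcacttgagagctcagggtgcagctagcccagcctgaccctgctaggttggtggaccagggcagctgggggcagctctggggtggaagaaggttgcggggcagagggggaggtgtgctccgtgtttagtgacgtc

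A few other fibrillar members are named here after their values were seen, so their order supports nothing about the class. Col27a1, a fibrillar collagen of cartilage and other tissues, was at 1.38 in the adult gland, 1.35 in the P7 gland, 3.20 in adult Tshbcre, 3.99 in P7 Tshbcre, 2.31 in Lhbcre and 7.26 in Ghcre. Its sorted libraries were all above the whole glands, by 0.48 to 1.80 on the log2 scale, short of 4-fold. That order did not hold with assembled transcripts added, which brought the adult gland to 11.9, above adult Tshbcre at 7.16. Col11a1, a chain of type XI collagen, was at 1.75 in the adult gland, 6.86 in the P7 gland, 3.28 in adult Tshbcre, 1.78 in P7 Tshbcre, 6.10 in Lhbcre and 2.29 in Ghcre. Col2a1, the cartilage fibril gene, was at 0.278 in the adult gland and 2.50 in the P7 gland, and at 1.66 and 3.30 in the Tshbcre libraries of the same ages.

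Type IV genes of the basement membrane were also abundant: in the adult gland Col4a1 and Col4a2 stood above Col1a1 and Col3a1, and in the P7 gland below them. Col4a1 and Col4a2 lie head to head on chromosome 8 (11248423 to 11362889 and 11362805 to 11499287) and encode the chains of the common type IV helix. Col4a1 was at 20.8 in the adult gland, 43.1 in the P7 gland, 3.89 in adult Tshbcre, 1.37 in P7 Tshbcre and 8.01 in Lhbcre. Col4a2 was at 15.0 in the adult gland, 31.0 in the P7 gland, 3.37 in adult Tshbcre, 1.25 in P7 Tshbcre and 6.15 in Lhbcre. Neither was listed for Ghcre. The ratio of Col4a1 to Col4a2 was 1.39 in the adult gland, 1.39 in the P7 gland, 1.15 in adult Tshbcre, 1.09 in P7 Tshbcre and 1.30 in Lhbcre. With the highest transcript of each gene alone it was 0.600 in P7 Tshbcre, the order turned, and the same as above in the other 4. Their RefSeq transcripts overlap by 22 bases at the 5′ ends.

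The other type IV chains were lower. Col4a3, a chain of the helix of kidney and lung basement membranes named after its values were seen, was at 2.42 in the adult gland, 0.289 in the P7 gland, 1.97 in adult Tshbcre, 0.798 in P7 Tshbcre, 0.760 in Lhbcre and 1.81 in Ghcre. It is the only type IV chain among the 5 compared that was lower at P7 than in the adult gland, by 1.41 on the log2 scale. Its partner Col4a4 starts on the other strand with 71 bases between the annotated starts (GRCm38.p6, chr1:82586850-82586920, given on the minus strand, the strand of Col4a4), shown because the pair shares this stretch; it held none of the 3 motifs.
Col4a4 to Col4a3: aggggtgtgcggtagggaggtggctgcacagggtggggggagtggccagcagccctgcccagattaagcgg
Col4a4 was listed at 0 in both whole glands and was under 1 in the other 4. With assembled transcripts added, Col4a3 to Col4a4 was 1.07 in adult Tshbcre, 1.06 in Ghcre and 1.03 in Lhbcre. It was 1.85 in the adult gland, 0.742 in P7 Tshbcre and 0.718 in the P7 gland.

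Type VI genes were among the most different between the ages. Col6a1 (chromosome 10, 76544626 to 76561878) was at 5.40 in the adult gland, 17.8 in the P7 gland, 1.49 in adult Tshbcre, 0.720 in P7 Tshbcre, 1.40 in Lhbcre and 0.194 in Ghcre. Col6a2, its neighbour on the chromosome (76431590 to 76459464), was at 3.91 in the adult gland, 19.4 in the P7 gland, 0.624 in adult Tshbcre, 0.766 in P7 Tshbcre, 0.467 in Lhbcre and 0.338 in Ghcre. Col6a3, the third chain of the common type VI helix, was at 0.323 in the adult gland and 8.93 in the P7 gland and under 0.3 in all 4 sorted libraries. The P7 gland was thus highest for all 3 chains. Col6a4, Col6a5 and Col6a6 stayed at or under 0.254 in the libraries that list them. The ratio of Col6a1 to Col6a2 was 1.38 in the adult gland and 0.915 in the P7 gland. The ratio of Col6a1 to Col6a3 was 16.7 and 1.99, but with assembled transcripts added, which brought Col6a3 of the adult gland to 1.76 scaled FPKM, the former was 3.06.

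The multiplexins lie where basement membranes meet the matrix. Col15a1 (chromosome 4, 47207744 to 47313165) was at 9.05 in the adult gland, 17.5 in the P7 gland, 1.31 in adult Tshbcre, 0.256 in P7 Tshbcre, 1.98 in Lhbcre and 0.211 in Ghcre. Col18a1, whose C-terminal fragment is endostatin, was at 5.30 in the adult gland, 8.50 in adult Tshbcre, 3.27 in P7 Tshbcre, 4.88 in Lhbcre and 0.279 in Ghcre. It was listed at 0 in the P7 gland, where an unnamed assembled transcript of its locus stood at 14.9, so its 0 was not read as absence.

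Col26a1 (chromosome 5, 136770613 to 136912230), which encodes a small collagen with an EMI domain, was seen mainly in the P7 gland. It was at 0.715 in the adult gland, 10.1 in the P7 gland, 0.522 in adult Tshbcre, 0.316 in P7 Tshbcre and 0.136 in Lhbcre, and was not listed for Ghcre. In the P7 gland 3 of its 10 annotated transcripts were above 0, at 3.02 to 4.01 each. The transmembrane collagens Col13a1 and Col25a1 were highest in whole glands. Col13a1 was at 5.61 in the adult gland and 3.70 in the P7 gland, at or under 0.160 in Tshbcre and Ghcre, and listed at 0 in Lhbcre. Col25a1 was at 5.09 in the adult gland, 7.01 in the P7 gland, 1.13 in Lhbcre and under 0.4 in the other 3. A small gene inside Col25a1 stood at 0.763 to 5.28 in the same libraries.

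Between the ages, whole glands differed in one direction for most collagens. Of 31 members compared, 27 were higher in the P7 gland and 4 lower, with a median difference of 1.02 on the log2 scale against 0.02 over all 15690 genes compared. At the 4-fold threshold 7 members were higher at P7, against 3.31% of all genes, and 1 was lower, against 3.28%. The 7 were Col3a1 (2.69), Col1a1 (2.36), Col6a3 (2.91), Col6a2 (2.06), Col26a1 (2.69), Col12a1 (2.26) and Col9a2 (2.25). Col12a1 and Col9a2 encode fibril-associated collagens, of the surfaces of type I and type II fibrils respectively, and stood at 5.76 and 4.72 in the P7 gland against 0.413 and 0.200 in the adult one. The member called lower was Col18a1, through its listing at 0. Over members above 0 in both glands, 7 of 29 were higher, against 0.505% of genes above 0 in both, and 0 were lower, against 0.632%; there was no test in either count.

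The classes were not alike in this comparison. Of 9 fibrillar members compared, 2 were called higher, and their median was 1.45. Of 5 type IV members none was called, with a median of 1.0, and Col4a1 and Col4a2 differed by 1.02 and 1.0. Of 3 type VI members 2 were called, with a median of 2.06. Among fibril-associated members 2 of 5 were called, with a median of 0.86. Summed over members, fibrillar collagens stood at 59.5 in the adult gland and 178 at P7, type IV at 40.9 and 82.6, and type VI at 9.92 and 46.6. With assembled transcripts added, 4 members kept a difference of 4-fold or more (Col1a1, Col3a1, Col6a2 and Col26a1), beside 391 of 17281 genes called higher. Col6a3 was then at 1.84, Col12a1 at 1.86 and Col9a2 at 1.30.

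**Figure D3:**
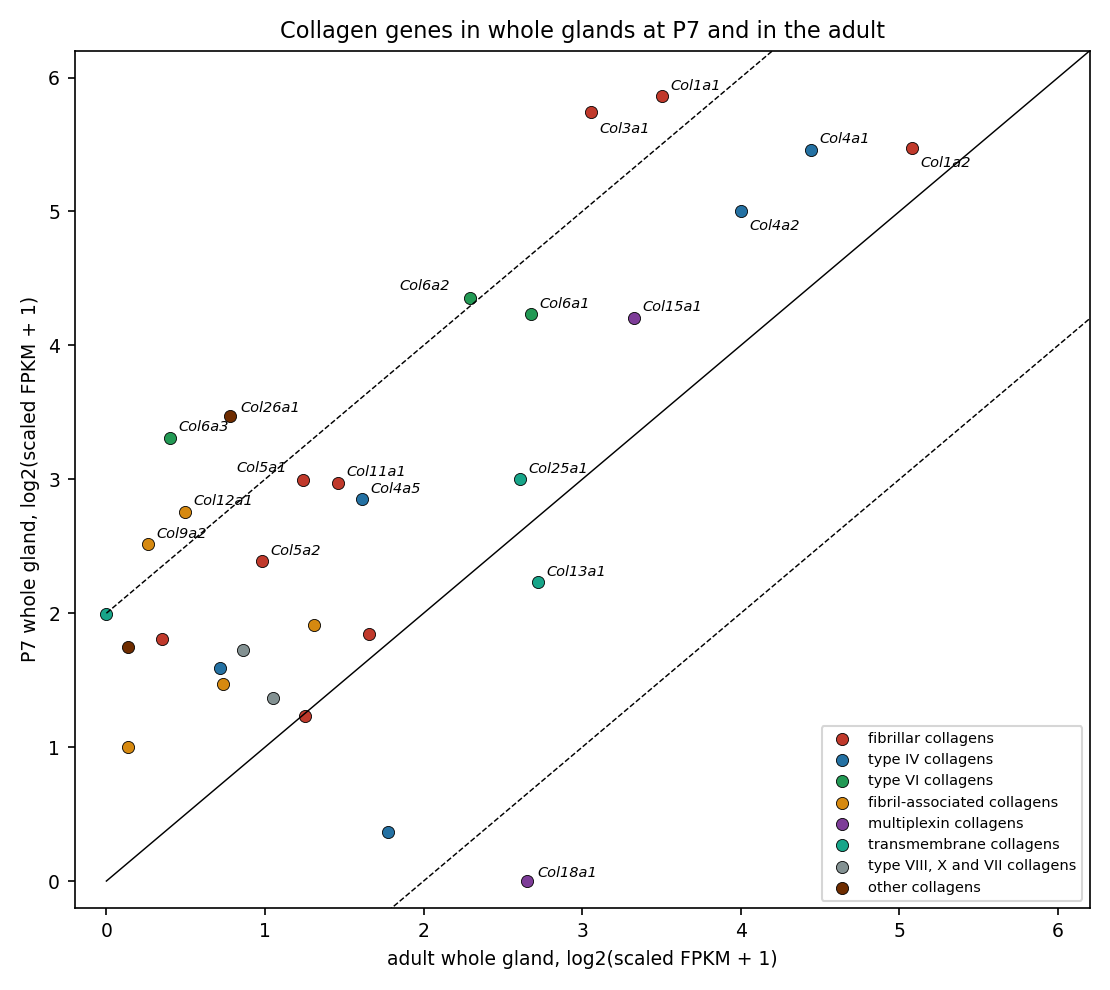
Log2(scaled FPKM + 1) of the 31 collagen genes compared, in the adult whole gland (horizontal axis) and the P7 whole gland (vertical axis); colours are collagen classes, the solid line is equality and dashed lines mark 4-fold. Most points lie above equality, Col1a1 and Col3a1 beyond the upper dashed line, and Col18a1 sits at 0 on the P7 axis.

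Genes that work with collagens were counted by role in the same 2 glands. Beside the 3.31% of all genes called higher and 3.28% lower, lists of this size with 0 or 1 call are near the background. Of 17 genes for modification and folding compared, 0 were 4-fold higher and 1 was lower, with a median of -0.17. P4ha2, a subunit of prolyl 4-hydroxylase, was at 8.44 in the adult gland and 0.998 at P7, while Fkbp10, a chaperone of procollagen, was at 5.92 and 13.0. Of 7 genes for processing and cross-linking, 0 were higher and 1 was lower, with a median of 0.23. Lox, a lysyl oxidase that cross-links fibrils, was at 1.61 in the adult and 7.22 at P7, and the transglutaminase Tgm2 at 19.5 and 1.88. Of 7 collagen receptors none was called, with a median of 0.35, and Adgrg1, a receptor of type III collagen, was at 14.9 and 19.3. Of 7 genes for collagen breakdown and its inhibitors, Mmp14, a membrane collagenase, was called higher, at 3.27 in the adult gland and 17.5 at P7.

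Matrix partners were counted in the same way. Of 17 laminins and other basement membrane genes, 0 were called higher and 1 lower, with a median of 0.68. Nid1, which links laminin to type IV collagen, was at 10.3 and 26.3. Of 14 fibril-binding proteoglycans and matricellular genes, 3 were called higher and 0 lower, with a median of 1.47. They were Eln, the gene of elastin, at 0.936 and 34.6, Dcn, the gene of the fibril-binding proteoglycan decorin, at 7.36 and 52.9, and Fn1, the gene of fibronectin, at 0.965 and 8.79. Of 12 ligands and readouts of TGF-beta, a growth factor that raises collagen synthesis in fibroblasts, none was called, with a median of 0.05.

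Markers of other cells were summed in the same glands. Of 9 markers of fibroblasts and other mesenchymal cells compared, 1 was called higher at P7, with a median of 0.85, and all 11 listed summed to 88.9 in the adult gland and 141 at P7. Dcn, at 7.36 and 52.9, made up most of that difference, while Apod was at 18.8 and 4.64. Dpt was listed at 0 in the adult gland and none of the 11 at P7. The list shares Dcn, Lum and Ogn with the proteoglycans. Of 8 markers of pericytes and smooth muscle 1 was called higher, and the 9 listed summed to 38.4 and 57.4, with Tagln at 0 in both glands. The called one, Acta2, at 2.53 and 24.2, differed by more than the whole sum, and Rgs5 was at 21.6 and 13.3. Of 12 endothelial markers none was called, with a median of -0.11 and sums of 156 and 139, so this list was not higher at P7 in sum or median. Markers of posterior lobe pituicytes summed to 17.02 and 33.8 (median 0.67, 0 of 7 called) and erythroid markers to 1064 and 1938 (median 0.58, 0 of 5 called), with none of either list at 0. The part of these cells in the collagen differences was not tested. In bulk RNA, more cells of a type and more RNA from each cell cannot be told apart.

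**Figure D4:**
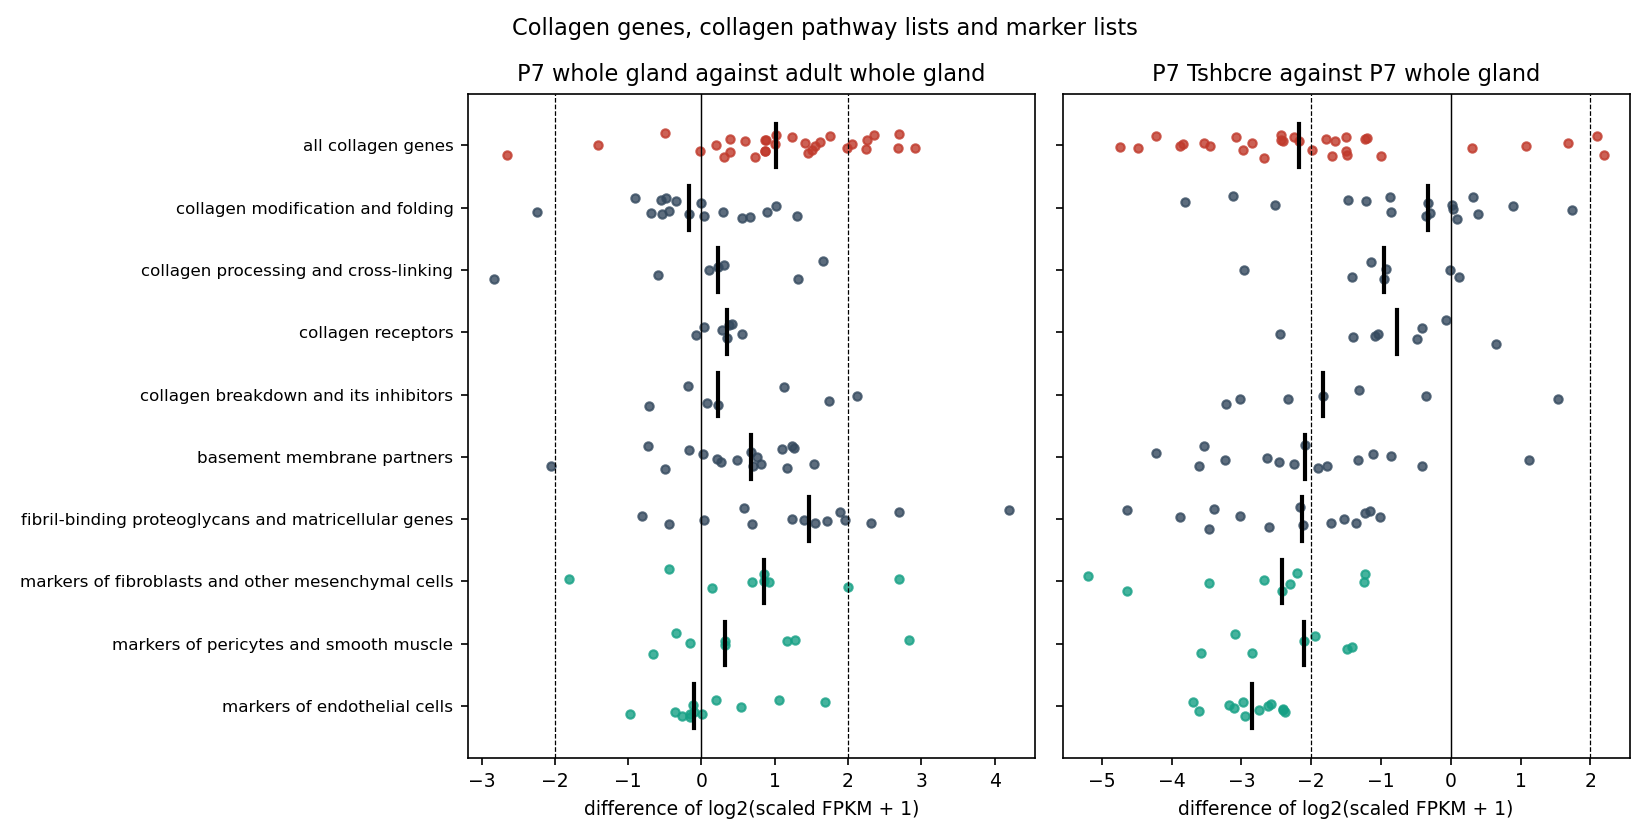
Differences of log2(scaled FPKM + 1) (horizontal axis) for the collagen genes (red), the collagen pathway lists (dark blue) and marker lists (green), in the P7 against the adult whole gland (left) and in P7 Tshbcre against the P7 whole gland (right); points are genes, vertical bars are medians, dashed lines mark 4-fold. On the left the collagen median is 1.02 and the endothelial one -0.11; on the right they are -2.18 and -2.85.

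The P7 Tshbcre library stood far below the P7 gland. Of 31 members compared, 26 were lower and 5 higher, with a median of -2.18. At the 4-fold threshold 16 were lower, against 6.11% of 16370 genes, and 2 were higher, against 3.26%. Scaling moved the split of all called genes here: 34.8% were higher with the factors used and 24.6% with FPKM as deposited. With the latter 1 member, Col18a1, was called higher, beside 480 of 16990 genes. Over members above 0 in both libraries, 15 of 26 were lower, against 2.21%, and 1 was higher, against 0.958%.

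The members lower in P7 Tshbcre came from all the larger classes. Among fibrillar genes Col1a1 differed by -4.75, Col3a1 by -4.49, Col5a1 by -2.44, Col1a2 by -2.40 and Col5a2 by -2.25. Col5a1 and Col5a2 encode type V chains, which set the diameter of type I fibrils, and stood at 6.96 and 4.24 in the P7 gland against 0.468 and 0.103 in the sort. Among type IV genes Col4a1 differed by -4.22 and Col4a2 by -3.83, and Col4a5 was at 6.22 in the gland and listed at 0 in the sort. An unnamed assembled transcript of the Col4a5 locus stood at 0.893 in the sort, so its 0 was not read as absence. With that transcript added, Col4a5 was lower by less than 4-fold. All 3 common type VI chains were called, Col6a2 at -3.53, Col6a1 at -3.45 and Col6a3 at -2.99. Col15a1 (-3.88), Col26a1 (-3.07), Col25a1 (-2.68), Col12a1 (-2.43) and Col13a1 (-2.18) made up the rest. The 2 called higher were Col24a1, at 2.20, and Col18a1, through its listing at 0 in the gland. With assembled transcripts added, Col18a1 stood at 5.49 in the sort and 14.9 in the gland, a difference of -1.29. No member was then called higher, beside 621 of 17762 genes.

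In the same comparison all 12 endothelial markers were lower by 4-fold or more, with a median of -2.85, and their sum was 139 in the gland and 6.6 in the sort, where Tek and Kdr were listed at 0. Of 9 mesenchymal markers 7 were lower, with sums of 141 and 4.11 and Twist1 and Twist2 at 0 in the sort. Of 7 pericyte markers 4 were lower, with sums of 57.4 and 2.44, and Tagln and Notch3 were at 0 in the sort. Their part in the collagen differences was not tested. The pathway lists had these counts, beside the 6.11% of all genes called lower, with no test between lists: 3 of 17 modification genes were lower (median -0.33), 1 of 7 for processing (-0.95), 1 of 8 receptors (-0.77) and 3 of 7 for breakdown (-1.82), with 8 of 15 for basement membranes (-2.08) and 8 of 14 proteoglycans and matricellular genes (-2.14). Plod3 and Fkbp10 of the modification genes, and Lamb2 of the basement membrane genes, were called lower through a listing at 0 in the sort. None of these lists had a member called higher. Serpinh1, the collagen-specific chaperone HSP47, was at 47.6 in the gland and 7.47 in the sort, while the hydroxylase subunit P4ha2 was at 0.998 and 5.65.

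The 3 adult sorted libraries were each compared with the same adult gland, so these comparisons share that library and are not independent. In adult Tshbcre, 6 of 20 members were lower, against 3.84% of 15797 genes, and 1 was higher, against 3.22%, with a median of -1.08. The lower ones were Col13a1 (-2.51), Col1a1 (-2.42), Col25a1 (-2.16), Col4a1 (-2.15), Col15a1 (-2.12) and Col3a1 (-2.05), and the higher one was Col24a1 (2.28). All 20 were above 0 in both libraries, a rule under which 0.803% of genes were lower and 0.634% higher. With libraries set to an equal sum of FPKM, 3 were lower (Col1a1, Col4a1 and Col13a1), beside 483 of 14611 genes. Of 12 endothelial markers 6 were lower, with sums of 22.0 against 156, and of 8 mesenchymal markers 3 were lower, with sums of 18.2 against 88.9. None of either list was at 0 in the sort, and their part in the collagen differences was not tested here or in the other adult sorts. Among the partners, Serpinh1 was at 11.3 against 46.5, Timp3, an inhibitor of matrix proteases, at 6.99 against 37.7, and Pcolce, which speeds the trimming of type I procollagen, at 20.9 against 13.8.

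In Lhbcre, 3 of 22 members were lower, against 5.46% of 16452 genes, and 0 were higher, against 3.85%, with a median of -0.78. Scaling moved the split of all called genes here too: 41.4% were higher with the factors used and 52.7% at an equal sum. Col1a1 (-2.81) and Col3a1 (-2.22) were called lower, and Col13a1 was listed at 0. Over the 21 members above 0 in both, 2 were lower, against 1.3%, and 0 higher, against 1.13%. Of the sorted libraries Lhbcre held the most Col1a2, Col4a1 and Col4a2, at 23.2, 8.01 and 6.15, and differed from the gland by -0.48, -1.27 and -1.16. Col16a1, a fibril-associated collagen named here after its values were seen, was at 4.10 in Lhbcre and 3.76 in Ghcre against 1.48 in the adult gland, 2.75 in the P7 gland, 0.470 in adult Tshbcre and 0.156 in P7 Tshbcre. Endothelial markers summed to 46.4 in Lhbcre, the highest of the sorted libraries, and 1 of 12 was called lower. Mesenchymal markers summed to 4.75, with Dpt, Lum and Twist1 at 0.

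In Ghcre, 7 of 15 members were lower, against 5.36% of 11286 genes, and 0 were higher, against 4.44%, with a median of -1.88. They were Col1a1 (-3.13), Col15a1 (-3.05), Col13a1 (-2.64), Col25a1 (-2.45), Col6a1 (-2.42) and Col18a1 (-2.30), and Col3a1, listed at 0 there and at 7.32 in the gland. Over the 13 above 0 in both, 6 were lower, against 1.95%, and 0 higher, against 0.839%. This library depended most on scaling. At an equal sum of FPKM the share of higher calls among all called genes went from 45.3% to 79.2%. There 4 members were lower and 3 were higher (Col16a1, Col24a1 and Col27a1), beside 410 lower and 1565 higher of 13036 genes. With FPKM as deposited the share of higher calls was 35.5%. Of 9 mesenchymal markers listed the sum was 4.38, of 7 endothelial markers 2.21, with Eng and Cldn5 at 0, and of 5 pericyte markers 2.95.

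**Figure D5:**
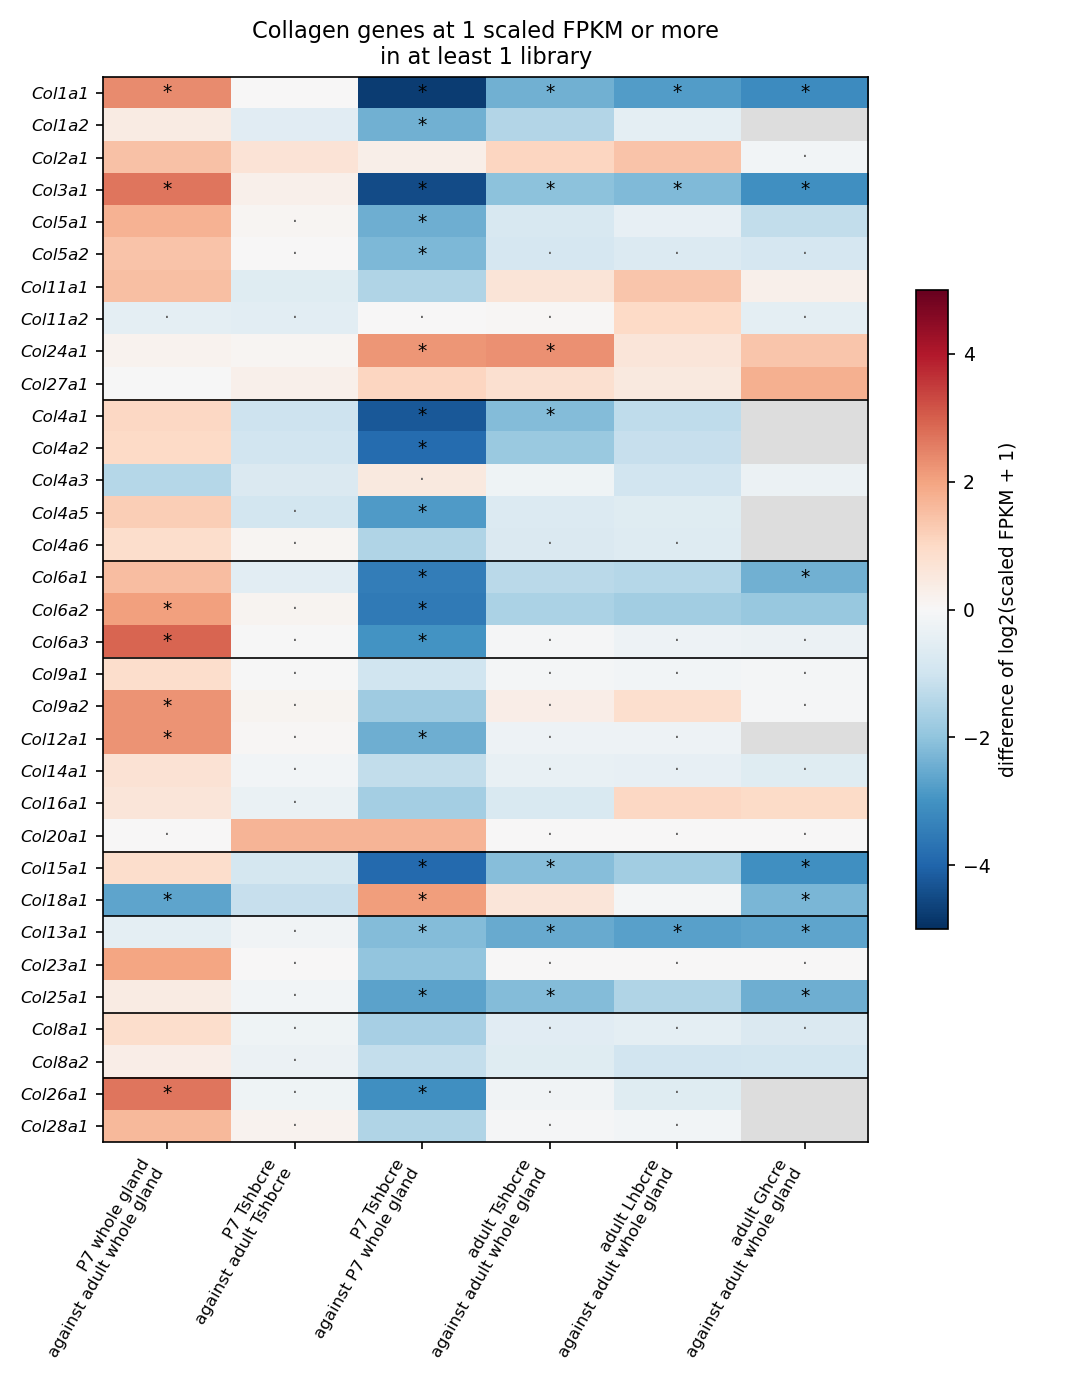
Difference of log2(scaled FPKM + 1) in each of 6 comparisons (columns) for the 33 collagen genes (rows, grouped by class) at 1 scaled FPKM or more in at least 1 library; red is higher in the first library named, a star marks a gene called apart, a small dot a gene under 1 in both libraries, and grey a gene not listed. The second column, the ages within Tshbcre, holds no star, and the third, P7 Tshbcre against the P7 gland, holds 18.

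Within the Tshbcre lineage Col1a1, Col3a1 and Col24a1 were close between the ages by their annotated transcripts. Col1a2 and the type IV and multiplexin genes compared were lower at P7. Of 14 members compared, 0 were 4-fold higher at P7, against 3.57% of 16029 genes, and 0 were lower, against 4.64%, and from so few members a count of 0 is near these shares. The median was -0.54 against 0.02 over all genes compared, with 6 members higher and 8 lower. Over the 13 above 0 in both, again 0 were higher, against 0.624%, and 0 lower, against 0.688%. Col1a1 differed by 0.03, Col3a1 by 0.24 and Col24a1 by 0.11. Col1a2 differed by -0.55, Col4a2 by -0.96 and Col15a1 by -0.88, the last from 1.31 in adult to 0.256 in P7 Tshbcre. Col4a1 differed by -1.05, from 3.89 to 1.37, and Col18a1 by -1.16, from 8.50 to 3.27. Assembled transcripts, not counted in these values, stood at 2.22 in P7 Tshbcre for Col18a1 and at 6.46 in adult Tshbcre for Col24a1. With them added, the Col18a1 difference was smaller, and Col24a1 was lower at P7. Col20a1, a fibril-associated collagen named after its values were seen, was at 2.22 in P7 Tshbcre and listed at 0 in the other 5 libraries. Assembled transcripts of its locus stood at 3.73 in Lhbcre and 2.64 in the P7 gland, so its 0 there was not read as absence. Endothelial markers summed to 22.0 in adult Tshbcre and 6.6 in P7 Tshbcre, mesenchymal markers to 18.2 and 4.11, and leukocyte markers to 56.1 and 4.32, so marker levels of the 2 sorts differed as well as their age, and their part in these values was not tested. The difference between this comparison and that of the whole glands was not tested either.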

How the data were processed

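RNA of 6 libraries, 1 a group, was analysed from the Cufflinks isoform tables the authors deposited. Per the submitters' processing notes, the tools included FastQC, Bowtie2 and Cufflinks and the build was mm39; no version is stated. The FPKM of each transcript and its lower and upper bounds were computed by the authors with Cufflinks, per the file headers. The coverage signal in the same deposited tables, also computed by the authors, was a constant multiple of FPKM in each file, which gives relative depths of 1 to 2.73; read totals were not used here. The Ghcre table held 1048575 data lines and ended at position 44957466 of chromosome 5; its remaining genes count as unmeasured.

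The FPKM of annotated transcripts were summed by gene name with Python 3.11.15 and pandas 2.3.3. Each library was divided by a factor, the median over 5808 genes of the ratio to their geometric mean, all at 1 FPKM or more in the 6 libraries; factors were 0.758 to 1.42. Differences used a pseudocount of 1. Scaling and calls were run on simulated counts, all drawn around the adult gland with a set of genes changed. That simulation lacks the differences in composition between these libraries, so it cannot show that the scaling suits them. A 0 was not read as absence. As an alternative, unnamed assembled transcripts of 200 nt or more were added where their locus held 1 named gene; transcripts of that length made up 4.25% (Lhbcre) to 65.8% (adult gland) of the unnamed ones, so this addition is uneven. Other alternatives changed the pseudocount, scaling and filters.

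Groups came from the labels, whose protocol text, sort included, is the same for all 6 samples; the whole glands were taken as unsorted from their titles and cell type. Members and gene lists were chosen with earlier results of these data known. Values in every library are given for collagens at 10 scaled FPKM or more, lower ones are named where they are 4-fold apart and above 0 in both libraries, and other lists are given by counts and the members at 5 or more with the largest differences; collagens named outside this rule are marked as such. Promoter sequences and motifs are from RefSeq, GRCm38.p6. No coordinates were converted between builds.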

Additional observations from a re-analysis of the deposited data

Results flagged for a closer look

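Some collagen genes moved in opposite directions in 2 comparisons of the same kind, by at least 1.0 on the log2 scale in each; none of these differences between comparisons was tested. Between the ages, Col4a1 differed by 1.02 in whole glands and by -1.05 in Tshbcre. Between a sort and its whole gland, Col18a1 differed by -2.30 in Ghcre and by 2.09 in P7 Tshbcre, the latter against a gland in which it was listed at 0. Col11a1 differed by 1.37 in Lhbcre and -1.50 in P7 Tshbcre, and Col16a1 by 1.04 and -1.70. Assembled transcripts of the Col11a1 locus stood at 1.25 and 0.817 in the adult gland, beside 1.75 for the annotated ones. With assembled transcripts added, the Col11a1 difference in Lhbcre fell under 1.0.

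Unnamed assembled transcripts were present in loci of collagen genes whose annotated transcripts were listed at 0. The highest was that of Col18a1 in the P7 gland, at 14.9 scaled FPKM (4999 nt). Those of Col20a1 stood at 3.73 in Lhbcre and 2.64 in the P7 gland, and those of Col11a2 at 2.78 in Ghcre and 1.18 in P7 Tshbcre. Col10a1 had 1.38 in adult Tshbcre, 1.19 in Ghcre and 1.20 in P7 Tshbcre; it lies inside Nt5dc1, and reads of these genes cannot be told apart. In the adult gland Col17a1 had 1.86 and Col4a4 1.31.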

How the results depend on the processing

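No paired analysis was possible because each group holds 1 library. Counts of called members and ratios of partner chains stayed in 102 recomputed values and moved in 26. Staying meant within 1.5 times for counts, and within that or their deposited bounds for ratios. The ratios were Col1a1 to Col1a2, Col4a1 to Col4a2 and Col6a1 or Col6a2 to Col6a3. Values of single genes stayed in 416, moved in 52 and reversed in 2. A change of filter only drops genes and cannot move such a value. So 70 (no minimum level), 65 (above 0 in both) and 55 (minimum of 5) of the 416 were fixed in advance. Member counts without a minimum level were fixed too. Of the 52 moves, 39 came with a pseudocount of 0.1, where 31 values stayed. With a pseudocount of 0.1, the counts became 13 higher and 2 lower for P7 against adult glands (6.80% and 6.58% of all genes), 1 higher for Tshbcre between the ages (8.68%), 2 higher for adult Tshbcre (6.81%), 1 higher for Ghcre (9.32%), 2 higher and 7 lower for Lhbcre (9.96% and 10.9%), and 25 lower for P7 Tshbcre (12.5%). At an equal sum of FPKM, adult Tshbcre had 3 lower, beside 483 of 14611 genes. Ghcre had 3 higher and 4 lower, beside 1565 and 410 of 13036. The median of all genes moved at this scaling to 1.09 in Ghcre, 0.37 in Lhbcre and 0.27 in P7 Tshbcre. Between the ages this median moved to 0.36 in Tshbcre and 0.14 in the glands. With FPKM as deposited it moved to 0.32 between glands, -0.14 in adult Tshbcre, -0.46 in Ghcre, -0.16 in Lhbcre and -0.47 in P7 Tshbcre. P7 Tshbcre then had 1 higher, beside 480 of 16990 genes. The median of the collagens kept its sign under both scalings in all 6 comparisons. Over genes above 0 in both libraries there were 0 lower between glands (0.632%) and 1 higher in P7 Tshbcre (0.958%). At a minimum of 5, P7 Tshbcre had 1 higher, beside 376 of 7590 genes. With assembled transcripts added there were 4 higher and 0 lower between glands, beside 391 and 477 of 17281 genes. There was 1 higher for Lhbcre (Col20a1), beside 515 of 17743, and 0 higher for P7 Tshbcre, beside 621 of 17762. Col18a1 reversed to 1.33 between glands and to -1.29 in P7 Tshbcre. Of these ratios, those that then moved went to 4.17 (adult Tshbcre), 4.47 (Ghcre) and 3.06 (adult gland) for Col6a1 to Col6a3 and 2.22 (adult gland) for Col6a2 to Col6a3. With the highest transcript alone they moved to 0.600 for Col4a1 to Col4a2 in P7 Tshbcre and, in the P7 gland, to 4.32 for Col6a1 to Col6a3 and 4.72 for Col6a2 to Col6a3. The cause of these moves was not tested. Without replicates, the differences carry no error between animals.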
